A study of Homo sapiens with 6 samples.

Results

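Many human genes end in more than one place, and the alternative 3′ untranslated regions (3′ UTRs) of such genes are described here in MOLM-13 cells, an established human acute myeloid leukaemia line. The members are annotated 3′ UTR entries, chosen by their reads. An entry was kept when it held at least 60 reads over the 6 libraries, when its gene had 2 or more such entries on 1 chromosome, and when it took at least 10% of the reads of its gene. This gave 1321 of 56498 3′ UTRs, in 780 of 25420 genes. In 477 genes 2 or more 3′ UTRs were members, and in the other 303 genes 1 was. For each gene the most read 3′ UTR and the next most read one formed a pair, in which "proximal" is the 3′ UTR nearer to the start of the gene and "distal" the one farther along the strand.

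MOLM-13 cells were given 10 µM C646, an inhibitor of the histone acetyltransferases CBP and p300, or the solvent DMSO for 2 h, and 100 µM 4-thiouridine (4sU) was present during the last 1 h, with 3 libraries per group. SLAM-seq turns 4sU in RNA into T>C conversions in the reads, so that T>C reads stand for RNA made during the labelling. A read counts from a single conversion and all 6 libraries were given 4sU. T>C mismatches of other origin were thus not told apart. The libraries read the 3′ ends of polyadenylated RNA. All 6 libraries come from the same cell line, and nothing in the labels says that the replicates were separate cultures, so that p-values measure the spread between these libraries, which may be technical.

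Cleavage and polyadenylation end a messenger RNA at a site that is usually marked by the hexamer AATAAA or its variant ATTAAA a short way upstream. A gene with several such sites makes RNAs that differ in the 3′ UTR and, where the early site lies in an intron, also in the coding sequence. The 3′ UTR carries binding sites for RNA-binding proteins and microRNAs, which act on the stability, translation and localisation of the RNA. A spliced 3′ UTR can also appear as separate annotated pieces of a single RNA, and such pieces are members too.

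Sequences at the ends of the 3′ UTRs are given to show whether a poly(A) hexamer stood there, which was the case at both ends in some pairs, at one end in others and at neither end in EPS15L1. The pairs are the 3 whose usage rose in the test below, the poly(A) factor gene CSTF3, the most read pair (NPM1), YBX1, whose proximal piece is very short, and CUX1, whose distal end carried far fewer T>C reads than the proximal one. Each line gives 30 bases of GRCh38 from 5′ to 3′, with a poly(A) hexamer in capitals. They are the last bases of the 3′ UTR, or bases around the hexamer where it lay farther from the end.
DNAJC7 proximal (chr17:41987819-41987848, minus strand): cataaaagcctacttgagaagagctcagtg
DNAJC7 distal (chr17:41976433-41976462, minus strand): agagAATAAAatgttttgacccttcctggc
EPS15L1 proximal (chr19:16400631-16400660, minus strand): ctgttgtacaaatacagtttttaaagcatt
EPS15L1 distal (chr19:16355244-16355273, minus strand): attaatataaaatattttaatacaaaacaa
BCCIP proximal (chr10:125842778-125842807, plus strand): gcaaataaagaAATAAAgatagcaagctga
BCCIP distal (chr10:125853666-125853695, plus strand): aaatactATTAAAgatgactatcaccttta
CSTF3 proximal (chr11:33141431-33141460, minus strand): tgcaacaacATTAAAacagtttcaatggta
CSTF3 distal (chr11:33084584-33084613, minus strand): tcctttaaaaAATAAAaggattcagaaaca
NPM1 proximal (chr5:171406698-171406727, plus strand): agctgctcAATAAAtatttgaatgcatcaa
NPM1 distal (chr5:171410855-171410884, plus strand): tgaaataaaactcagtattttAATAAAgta
YBX1 proximal (chr1:42701017-42701046, plus strand): tgccggcttaccatctctaccatcatccgg
YBX1 distal (chr1:42703774-42703803, plus strand): tgttgccaacATTAAAtgcagtttcaactt
CUX1 proximal (chr7:102258204-102258233, plus strand): ttgaagtaaatatcttttatacaaacacaa
CUX1 distal (chr7:102283929-102283958, plus strand): cacatttgaAATAAAccacggttgcagcca

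The proximal pieces of DNAJC7 and YBX1 held neither hexamer, and no GENCODE transcript ended within 50 bases of them. In both genes the 2 pieces lay on a shared transcript, so that they need not be alternative ends. The 3′ UTRs of BCCIP, EPS15L1 and PLAUR lay on no shared transcript, and a transcript ended near each of them. Over all members, AATAAA or ATTAAA on the sense strand stood in the last 50 bases of 916 of 1321 3′ UTRs (69.3%), against 37.5% of all annotated 3′ UTRs and 77.8% of those with at least 60 reads that are not members. Within the 477 pairs it stood in 58.9% of the proximal and 77.6% of the distal 3′ UTRs. Both ends held it in 220 pairs, the distal end alone in 150, the proximal end alone in 61, and neither in 46. A transcript end lay within 50 bases of 68.3% of proximal and 90.6% of distal 3′ UTRs. The median length was 448 bases for proximal and 1134 bases for distal 3′ UTRs. The median distance between them was 10954 bases, and 243 of the 477 pairs lay on a shared GENCODE transcript.

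Of the 1321 members, 1186 belonged to protein-coding genes, 96 to long noncoding RNA genes and 39 to transcribed pseudogenes. The median member held 885 reads. The distal 3′ UTR was the more read one in 325 of 477 pairs and the proximal one in 151, which describes the reads that chose the members. Genes with more than 2 members were few, with 43 genes at 3, 6 at 4 and 3 at 5 members. In these genes the pair leaves out the other members, which can lie before, between or after the 2 in the pair. Just inside the limits stood the 3′ UTR of CFAP119 with 60 reads and that of C22orf39 with 10.2% of its gene, and just outside stood AOPEP with 59 reads and ZEB2 with 9.90%. The members held between 10.9% and 11.4% of the reads of a library. The libraries held between 7252597 and 10225448 reads on 3′ UTRs, of which between 6.34% and 8.86% were T>C reads. All 10 marker genes of the line were read, at group means between 20.2 and 3042 CPM (reads scaled to a common library size), against 0 to 6.30 CPM for 8 markers of other cell types. Of these 8, COL1A1 rose, from 1.51 to 6.30 CPM, and CD3E, HBB and ALB were at 0 in all libraries; their part in the results was not tested. Fewer cells and less RNA per cell cannot be told apart in such libraries, but a share within a pair does not depend on library scaling.

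The first question was whether C646 changed which 3′ UTR a gene used. The reads lay farther along the gene after C646. The median distal share of the 477 pairs stood at 63.9%, 63.1% and 62.7% for the libraries given DMSO, and at 67.7%, 68.9% and 70.0% for those given C646. In T>C reads it was 66.7%, 64.8% and 63.6% in DMSO and 69.2%, 74.4% and 73.8% in C646. The groups did not overlap in either measure. In T>C reads they did overlap in some sets of these pairs. With a hexamer at both ends DMSO replicate 1 had 62.5% and C646 replicate 1 had 61.1%, and on a shared transcript 73.2% and 72.9%. On no shared transcript the T>C medians did not overlap. These medians were not tested, since the pairs within a library are not replicates.

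**Figure D1:**
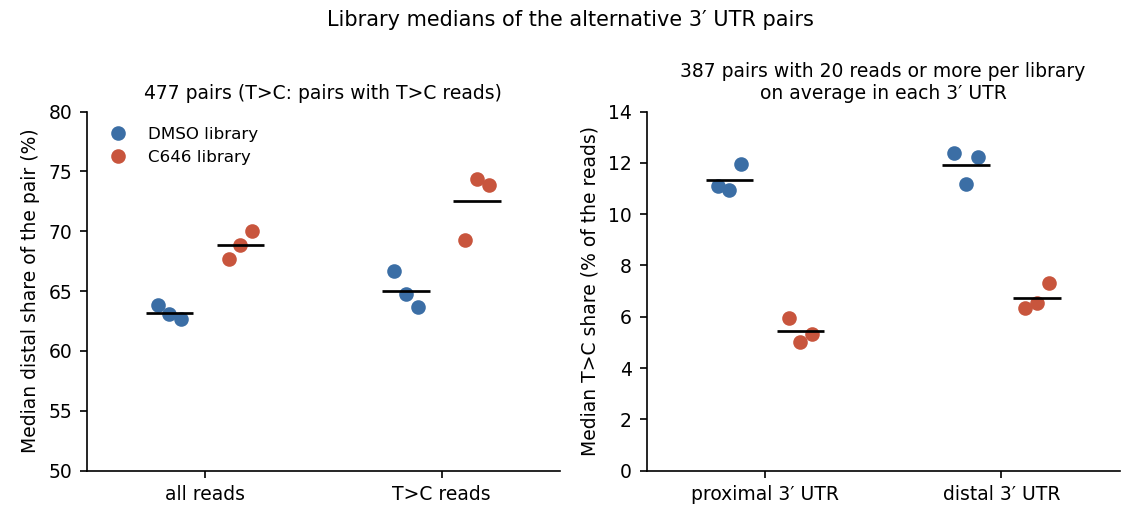
Medians over pairs in each library, with DMSO in blue and C646 in red and the group mean as a bar. Left, the distal share of the pair in percent of all reads and of T>C reads (axis from 50%), where the C646 libraries lie above the DMSO libraries. Right, the T>C share in percent of the reads of the proximal and of the distal 3′ UTR in 387 pairs, where the C646 libraries lie below.

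Per pair, the median change of distal against proximal reads was 0.27 on the log2 scale in all reads (305 of 477 pairs above 0), beside 0.28 over all 1865 pairs tested. In T>C reads it was 0.40 over 356 pairs, beside 0.20 over all 1298 pairs tested. The proximal 3′ UTRs had a median log2 change in CPM of -0.17 and the distal ones of 0.07. The distal share of the 3 C646 libraries lay above that of the 3 DMSO libraries in 109 of 477 pairs (22.9%, against 12.2% of all pairs tested) and below it in 50 pairs (10.5%, against 4.93%). Pairs on a shared transcript had a median usage change of 0.23 (243 pairs) and pairs on no shared transcript one of 0.30 (234 pairs). By hexamer, the median was 0.37 with one at the distal end only (150 pairs), 0.28 with one at both ends (220 pairs), 0.25 with none (46 pairs) and 0.17 with one at the proximal end only (61 pairs).

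Gene by gene, 3 of the 477 pairs changed at an adjusted p of at most 0.05, all 3 with a higher distal share after C646 (0.629%, against 0.429% of all 1865 pairs tested, and 0.0% with a lower distal share). The test was edgeR's quasi-likelihood test of distal against proximal reads, with Benjamini-Hochberg adjustment over all pairs. At an unadjusted p under 0.05 there were 49 member pairs with a higher and 17 with a lower distal share (10.3% and 3.56%, against 8.31% and 2.84% of all pairs). The 3 genes encode a co-chaperone of HSP70 and HSP90 (DNAJC7), an adaptor of clathrin-coated pits (EPS15L1) and a partner of BRCA2 and p21 (BCCIP).

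The proximal piece of DNAJC7 (92 bases, chr17:41987819-41987910) held 186, 137 and 123 reads in DMSO and 90, 82 and 116 in C646. The distal 3′ UTR (350 bases, chr17:41976421-41976770) held 311, 243 and 344 reads in DMSO and 778, 1126 and 1948 in C646. The proximal counts were thus lower and the distal counts higher in each C646 library than in any DMSO library. The distal share was 66.7% ± 6.04 in DMSO and 92.4% ± 2.47 in C646 (SD, n = 3), a log2 change of 2.64 ± 0.475 (SE, edgeR adjusted p = 0.0163). The T>C share of the distal 3′ UTR was 5.79% ± 0.0263 in DMSO and 5.80% ± 0.55 in C646.

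The distal share of EPS15L1 was 25.3%, 18.4% and 35.7% in DMSO and 59.5%, 75% and 75.2% in C646. Its proximal 3′ UTR (chr19:16400631-16402305) held between 66 and 174 reads per library, and its distal 3′ UTR (chr19:16355244-16355851) went from between 27 and 59 reads in DMSO to between 122 and 400 in C646. The log2 change was 2.76 ± 0.564 (edgeR adjusted p = 0.0251). EPS15L1 has another member between these (chr19:16361578-16361984). Of the reads on all 3 it took 29.9% ± 6.07 in DMSO and 21.5% ± 5.08 in C646, and the last one 18.2% ± 4.70 and 55.2% ± 10.3. The distal share of BCCIP was 22.4%, 19.6% and 30.4% in DMSO and 59.0%, 59.2% and 65.0% in C646. The proximal 3′ UTR of BCCIP (chr10:125841360-125842807) held between 151 and 257 reads per library, with overlapping groups, and the distal one (chr10:125853244-125853695) held 74, 45 and 66 reads in DMSO and 220, 235 and 370 in C646. Its log2 change was 2.33 ± 0.492 (edgeR adjusted p = 0.0323). BCCIP has another member before these, nearest to the start of the gene (chr10:125836275-125836555), so that the one called proximal here is the middle one. Of the reads on all 3, the first took 8.56%, 5.35% and 8.82% in DMSO and 17.5%, 20.8% and 27.3% in C646, the middle one 70.2% ± 6.38 and 30.5% ± 4.5, and the last one 22.2% ± 4.86 and 47.6% ± 0.936. The first and the last were thus both higher and the middle one lower in each C646 library, which was not tested.

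The call of DNAJC7 was kept whichever library was left out. That of EPS15L1 was lost without C646 replicate 2 (adjusted p = 0.0889), without DMSO replicate 1 (0.0582) and without DMSO replicate 2 (0.112), and that of BCCIP without C646 replicate 2 (0.0880), without DMSO replicate 1 (0.102), replicate 2 (0.121) or replicate 3 (0.0546). With the replicate number as a block the adjusted p values were 0.0520 for DNAJC7 and 0.0927 for both other genes.

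**Figure D2:**
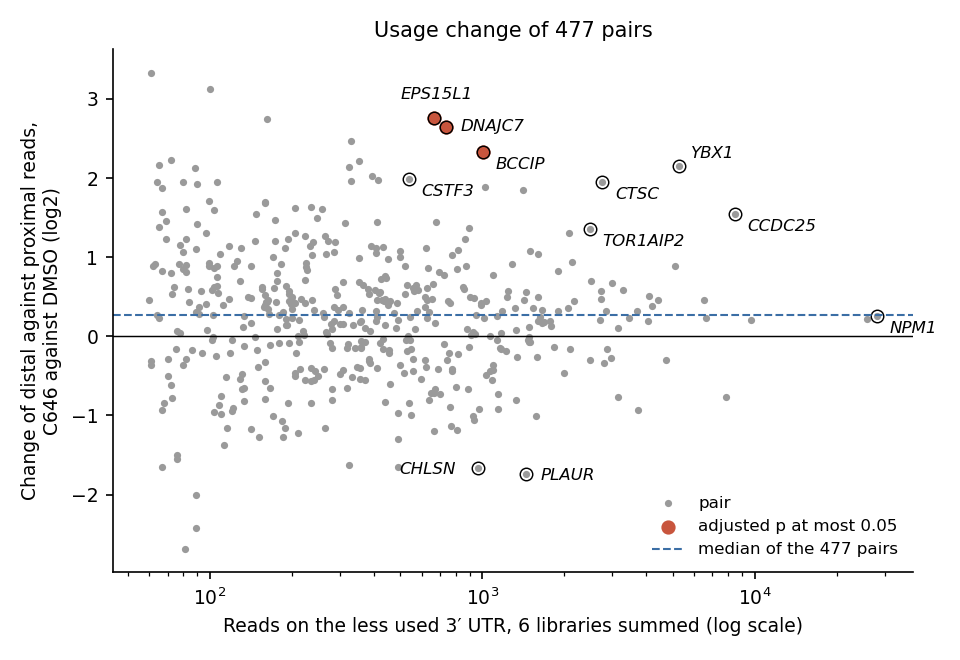
Change of distal against proximal reads on C646, as a log2 value, against the reads of the less used 3′ UTR (log axis) for the 477 pairs. Red points are the 3 pairs past the threshold, circles mark the labelled genes, and the dashed line is the median change of 0.27.

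The count of calls depended on which pairs were tested together. The 780 pairs whose 3′ UTRs both averaged 10 or more reads a library are called the deeper pairs. All 477 member pairs are among them, so that no member pair was left out for depth. Only the other pairs in the fit and in the adjustment differed. Among the 780, 25 member pairs changed to the distal and 4 to the proximal 3′ UTR (5.24% and 0.839% of 477, against 4.36% and 0.769% of all pairs so tested). These 29 held the 3 named above. In 4 of the 29 one 3′ UTR held under 30 reads in a whole group. The distal 3′ UTRs of FBXO43 and ZBTB1 held 24 and 14 reads in DMSO, and the proximal one of TCTN1 held 6, so that these 3 pairs passed the limit of 60 reads only through the C646 libraries and their calls are no support for a change. The proximal 3′ UTR of CSNK2A2 held 25 reads in C646 and 36 in DMSO. With a replicate block the counts among these pairs were 20 and 2 (4.19% and 0.419%, against 3.59% and 0.256%). DESeq2 gave 22 and 1 (4.61% and 0.210%, against 1.66% and 0.0536%). The following genes were named after their values were seen, all called among the deeper pairs by edgeR and not over all 1865. CTSC encodes cathepsin C, which activates the serine proteases of myeloid granules. Its distal share was 41.7%, 27.7% and 36.3% in DMSO and 63.7%, 64.9% and 73.7% in C646, a log2 change of 1.95 ± 0.350 among the deeper pairs (adjusted p = 0.0152, against 0.0703 over all pairs). SENP6, a SUMO protease, had a distal share of 60.7% ± 7.04 in DMSO and 84.6% ± 4.02 in C646 (adjusted p = 0.0174). HNMT, which inactivates histamine, had one of 46.4% ± 7.38 and 76.0% ± 4.39 (0.0152), and the DNA helicase gene HELQ one of 16.2% ± 3.67 and 51.3% ± 4.58 (0.0107). In these 4 genes no C646 library overlapped a DMSO library.

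CSTF3 is a member and a poly(A) factor gene in one, as it encodes the CstF-77 subunit of the cleavage stimulation factor. Its proximal 3′ UTR (chr11:33141431-33141878) lies 56344 bases before its distal one (chr11:33084584-33085086). DMSO libraries had 113, 125 and 105 proximal reads and C646 libraries 60, 65 and 72. Distal reads came to 473, 230 and 304 in DMSO against 627, 681 and 923 in C646. All proximal values were lower and all distal values higher in C646. The distal share was 73.3% ± 8.02 in DMSO and 91.8% ± 0.86 in C646, with an adjusted p of 0.0796 over all pairs and 0.0152 among the deeper pairs (edgeR).

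YBX1, which encodes a cold-shock-domain protein that binds RNA, had a distal share of 72.9%, 65.2% and 70.9% in DMSO and 83.7%, 89.6% and 96.2% in C646 (log2 change 2.15 ± 0.555, edgeR adjusted p = 0.0927 over all pairs and 0.0471 among the deeper pairs). Of its distal reads 71.8% were multimapped, and its proximal piece is 31 bases long, so that the division of reads between both is uncertain. The pair of TOR1AIP2, a cofactor of torsins in the endoplasmic reticulum, lies on 2 long 3′ UTRs with AATAAA in each, and its distal share was 28.0% ± 4.46 in DMSO and 49.7% ± 2.02 in C646 (adjusted p = 0.0314 among the deeper pairs, 0.243 over all).

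Of the 4 pairs called the other way, PLAUR, CHLSN and HPS1 held 30 or more reads of each 3′ UTR in both groups. PLAUR encodes the urokinase receptor, and its distal share was 37.9%, 27.8% and 30% in DMSO and 16.5%, 14.3% and 7.57% in C646, a log2 change of -1.74 ± 0.395 (adjusted p = 0.0314, against 0.126 over all pairs). Its proximal reads came to 573, 520 and 602 in DMSO against 1086, 1430 and 2346 in C646, with no overlap, and its distal reads overlapped between the groups. CHLSN had a distal share of 83.3% ± 1.07 in DMSO and 61.0% ± 6.03 in C646 (adjusted p = 0.0165). HPS1 encodes a subunit of the BLOC-3 complex that acts in the making of lysosome-related organelles (92.7% ± 1.02 and 83.8% ± 3.33, adjusted p = 0.0660 with the replicate block). TCTN1, a gene of the ciliary transition zone, had 96.3% ± 2.02 and 79.9% ± 5.33, which is given as a description only, since its proximal 3′ UTR held 1, 3 and 2 reads in DMSO and 75 over the C646 libraries.

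**Figure D3:**
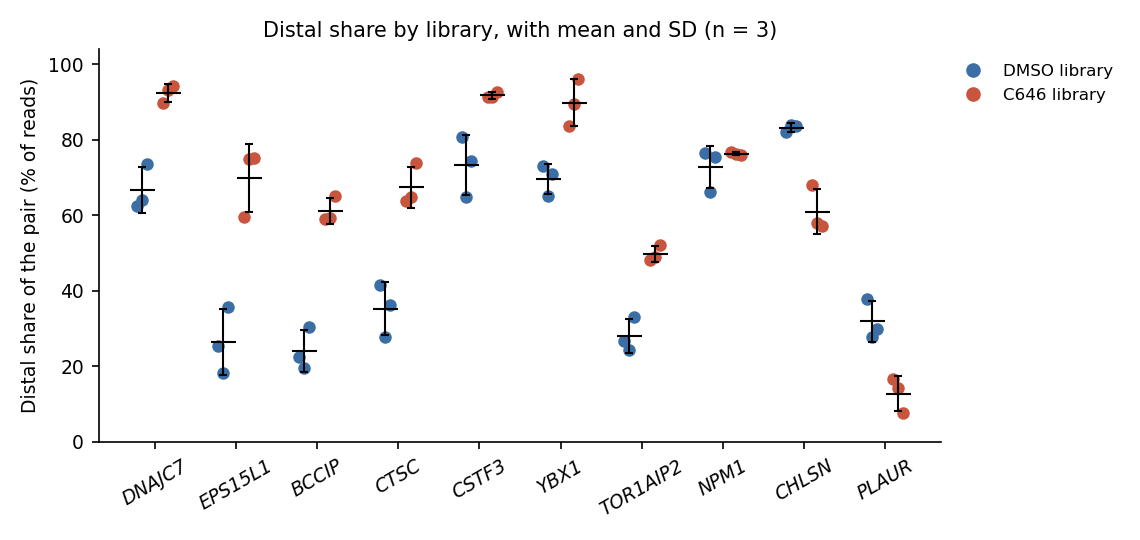
Distal share of the pair in percent of its reads for 10 genes, 1 point per library (DMSO blue, C646 red) with the mean and the SD of 3 libraries. The C646 libraries lie above the DMSO libraries in DNAJC7, EPS15L1, BCCIP, CTSC, CSTF3, YBX1 and TOR1AIP2 and below them in CHLSN and PLAUR, and in NPM1 they all lie within 76.1% to 76.7%.

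Of the 10 pairs with the most reads on their less used 3′ UTR, none was called over all pairs. NPM1 encodes nucleophosmin, a nucleolar protein that is often mutated in acute myeloid leukaemia. Its distal share was 76.6%, 66.3% and 75.5% in DMSO and 76.7%, 76.2% and 76.1% in C646, a log2 change of 0.25 ± 0.459 (edgeR adjusted p = 0.814). Its proximal 3′ UTR (chr5:171406406-171406727) held between 4259 and 5259 reads per library and the distal one (chr5:171410566-171410884) between 9113 and 17027, and DMSO replicate 2 held the fewest distal reads. With 1 library left out the change of NPM1 ran from 0.023 to 0.39. The snoRNA host gene SNHG6 had a log2 change of 0.21, the ATP synthase gene ATP5ME of 0.23 and the complex I gene NDUFB2 of 0.46. Their values ran from -0.070 to 0.49, from -0.070 to 0.51 and from 0.16 to 0.80 with 1 library left out. COX6C, of cytochrome c oxidase, had one of -0.77, which went from -1.28 without DMSO replicate 1 to -0.11 without DMSO replicate 2, and SYNCRIP, which encodes an RNA-binding protein of the hnRNP family, one of -0.30. RBMX, another gene of that family, had a log2 change of 0.89 (0.48 to 1.21 with 1 library left out), and CCDC25 had one of 1.55. The distal 3′ UTR of RBMX here is the middle one of its 3 members. Of the 10 pairs, CCDC25 (adjusted p = 0.0314) and YBX1 (0.0471) were called among the deeper pairs. The distal share of CCDC25 was 38.8%, 43.3% and 55.4% in DMSO and 68.8%, 71.0% and 73.4% in C646. In COX6C and NDUFB2 the proximal piece was 15 and 29 bases long.

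In T>C reads alone, none of the 356 member pairs tested was called for a changed distal share (edgeR, smallest adjusted p = 0.210), and 1 of 1298 pairs was (0.077%). In simulated data this test called 5.26% of the pairs changed by 1 on the log2 scale and 36.0% of those changed by 2. Few calls here thus do not show that the distal share stayed the same. DESeq2 called 0 member pairs too. At an unadjusted p under 0.05 there were 27 pairs with a higher and 7 with a lower distal share (7.58% and 1.97%, against 4.31% and 2.39% of all pairs). Among the pairs whose 3′ UTRs both averaged 10 or more T>C reads a library, 149 of them members, 9 member pairs changed to the distal and 1 to the proximal 3′ UTR (6.04% and 0.671%, against 4.95% and 1.1% of the 182 pairs so tested). With a replicate block the calls of CSTF3, HELQ, HNMT and SENP6 were left, 4 with a higher distal share (2.68%, against 2.2%), and those of NUP98, DIDO1 and PHF19 among others were lost (adjusted p = 0.0724, 0.0664 and 0.0724). CSTF3 was one of the 9, with a distal share of 66.0%, 50% and 64.1% of its T>C reads in DMSO and 95.2%, 87.9% and 89.8% in C646 (log2 change 2.77 ± 0.580, adjusted p = 0.0433). HNMT (45.5% ± 11.4 and 85.7% ± 5.80), SENP6 (57.6% ± 2.51 and 88.1% ± 9.32) and HELQ (11.7% ± 6.71 and 45.4% ± 17.9) were called in T>C reads as well as in all reads. NUP98, a nuclear pore gene, had a distal share of 31.4% ± 3.44 of its T>C reads in DMSO and 73.0% ± 12.3 in C646, and DIDO1 one of 39.3% ± 5.32 and 77.1% ± 2.52. PHF19, a cofactor of the PRC2 complex, changed the other way, from 74.6% ± 7.54 to 37.8% ± 7.28. These genes were named after their values were seen.

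The second question was whether both 3′ UTRs of a pair carried T>C reads in equal shares. They are called its ends below, also where they lie on a shared transcript and may be pieces of a single RNA. The T>C share is the percent of the reads of a 3′ UTR that are T>C reads. In DMSO its median over 387 pairs was 11.1%, 10.9% and 11.9% for proximal and 12.4%, 11.2% and 12.2% for distal 3′ UTRs, close to one another in each library. In single genes the ends differed. Of 356 member pairs, 60 had a higher T>C share at the distal end (16.9%, against 7.7% of all 1298 pairs tested) and 48 a lower one (13.5%, against 10.8%) in DMSO, by edgeR's test of T>C against other reads at an adjusted p of at most 0.05. In all 108 the sign was the same in each DMSO library. Which direction was the more frequent depended on 1 library, as 29 were higher and 32 lower without DMSO replicate 1, against 39 and 33 without replicate 2 and 39 and 32 without replicate 3. By conversions per covered T the counts were 24 and 29.

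Of the 60 pairs with a higher distal T>C share, 41 lay on a shared transcript and 15 had a proximal piece under 100 bases. Of the 48 with a lower one, 21 and 2 did, and of all 356 pairs 189 and 44 did. The hexamer stood in the proximal 3′ UTR of 27 of the 60 and of 33 of the 48, beside 206 of the 356. Conversions per covered T, which count each converted base and not each read, kept the direction in 56 of the 60 and in all 48, and called 24 and 27 of them. In the C646 libraries 41 of the 60 and 23 of the 48 were called the same way.

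**Figure D4:**
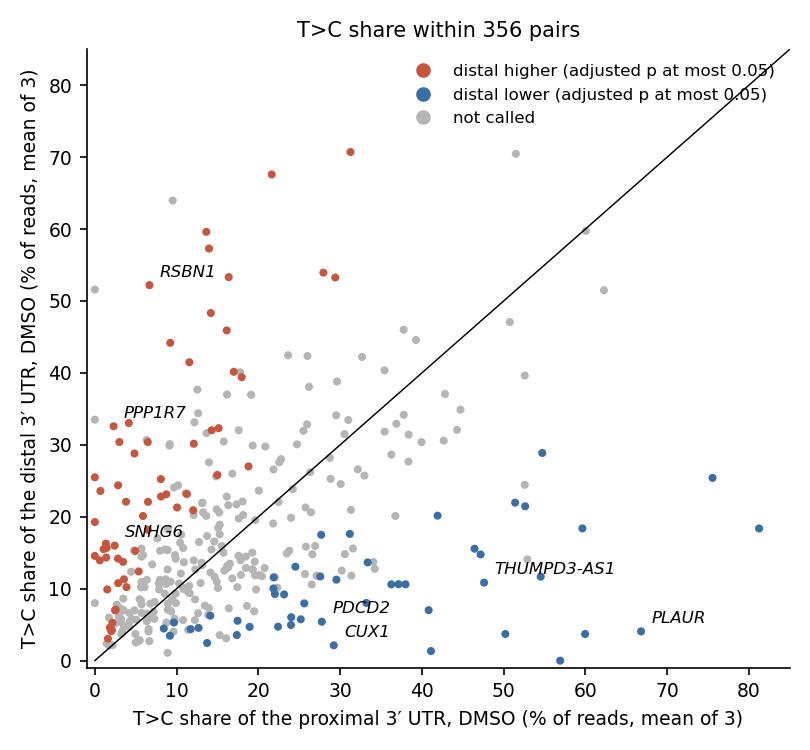
T>C share of the distal against the proximal 3′ UTR in DMSO, as the mean of 3 libraries in percent of reads, for 356 pairs, with the line of equal shares. The 60 red pairs had a higher and the 48 blue pairs a lower distal share, and grey pairs were not called.

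PLAUR had the widest difference among the named pairs with a lower distal share. The T>C share of its proximal 3′ UTR was 60.0%, 77.1% and 63.3% in DMSO and 19.5%, 20.1% and 19.7% in C646. Its distal 3′ UTR, 2110 bases on, had 5.71%, 3.00% and 3.49% in DMSO and 4.65%, 0.418% and 3.12% in C646. The proximal values were thus far above the distal ones in every library, and lower in C646 than in DMSO. The log2 odds ratio of distal against proximal was -5.51 ± 0.365 in DMSO (edgeR adjusted p = 7.15e-17), and -6.12 without DMSO replicate 1. The T>C reads carried a mean of 2.70 conversions at the proximal end in DMSO, beside 2.00 to 2.11 over all reads of the DMSO libraries.

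CUX1, a homeodomain transcription factor gene, had a T>C share of 31.1%, 26.9% and 29.7% at the proximal end (chr7:102249043-102258233) and of 0.459%, 2.36% and 3.57% at the distal end (chr7:102283091-102283958) in DMSO (log2 odds ratio -4.34 ± 0.439, adjusted p = 5.78e-11, and -3.71 without DMSO replicate 1). In C646 the ends had 21.9%, 18.0% and 23.5%, and 0.813%, 1.87% and 0.00%. PDCD2, which encodes a chaperone of a ribosomal protein, had 23.4%, 28.7% and 31.3% at the proximal end (chr6:170581747-170583027) and 6.67%, 5.84% and 3.74% at the distal end (chr6:170575572-170577558). The proximal share of PDCD2 was 8.30%, 7.83% and 4.95% in C646. The antisense RNA gene THUMPD3-AS1 had 47.6% ± 1.78 at the proximal and 10.8% ± 1.74 at the distal end in DMSO, and 50.8% ± 2.46 and 25.6% ± 0.920 in C646. The remaining named pairs with a lower distal share were the Mediator subunit gene MED23, ZXDC, the receptor tyrosine kinase gene RET and the pseudogene BMS1P20, with log2 odds ratios of -2.69, -3.16, -3.06 and -4.83. By conversions per covered T, BMS1P20 had -0.47 (adjusted p = 0.951) and RET -1.73 (0.212), so that both calls were lost. BMS1P20 had -8.16 without DMSO replicate 2 and -4.01 without DMSO replicate 3. Its end called proximal is the middle one of 3 members. That end had a T>C share of 50.2% ± 7.87 in DMSO, and the first member had 4.96% ± 6.64. The call of RET was lost without DMSO replicate 1 (0.0935) or 3 (0.169), and that of MED23 without DMSO replicate 1 (0.0929) or 2 (0.139). At the proximal end of BMS1P20 the files count a mean of 0.08 conversions per T>C read, fewer than 1, so that conversion counts do not hold every conversion of the T>C reads there, and the check by conversions is incomplete for such pieces.

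Among pairs with a higher distal share, RSBN1 had a T>C share of 6.86%, 8.05% and 5.12% at the proximal piece (chr1:113811710-113812476) and of 48.0%, 56.9% and 51.6% at the distal 3′ UTR (chr1:113761832-113766453) in DMSO. Its log2 odds ratio was 3.94 ± 0.360 (adjusted p = 3.34e-12), and 1.47 by conversions per covered T (adjusted p = 0.0363). In C646 the distal share was 32.1%, 35.9% and 34.7%, below each DMSO value, and the proximal shares overlapped between the groups. OGG1, which encodes the glycosylase that removes oxidised guanine from DNA, had 0.917%, 0.893% and 0.00% at the proximal and 15.5%, 17.5% and 8.76% at the distal end in DMSO (log2 odds ratio 4.31 ± 0.842, adjusted p = 0.000133). SNHG6 had 2.80%, 2.24% and 2.24% at its proximal piece of 69 bases and 17.9%, 15% and 15.1% at its distal one of 185 bases (log2 odds ratio 2.92). SHLD1, of the shieldin complex, and the casein kinase gene CSNK1E, which overlaps another annotated gene, had log2 odds ratios of 4.48 and 3.55. That of SHLD1 was 5.96 without DMSO replicate 1 (adjusted p = 0.0392) and that of CSNK1E 4.15 without DMSO replicate 3. DIP2A held 0 T>C reads among 72 at its proximal piece in DMSO, which allows a share of up to 4.17%. Its distal end had a share of 20.7%, which is 4.97-fold that limit. The call was lost without DMSO replicate 1 (edgeR adjusted p = 0.133).

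**Figure D5:**
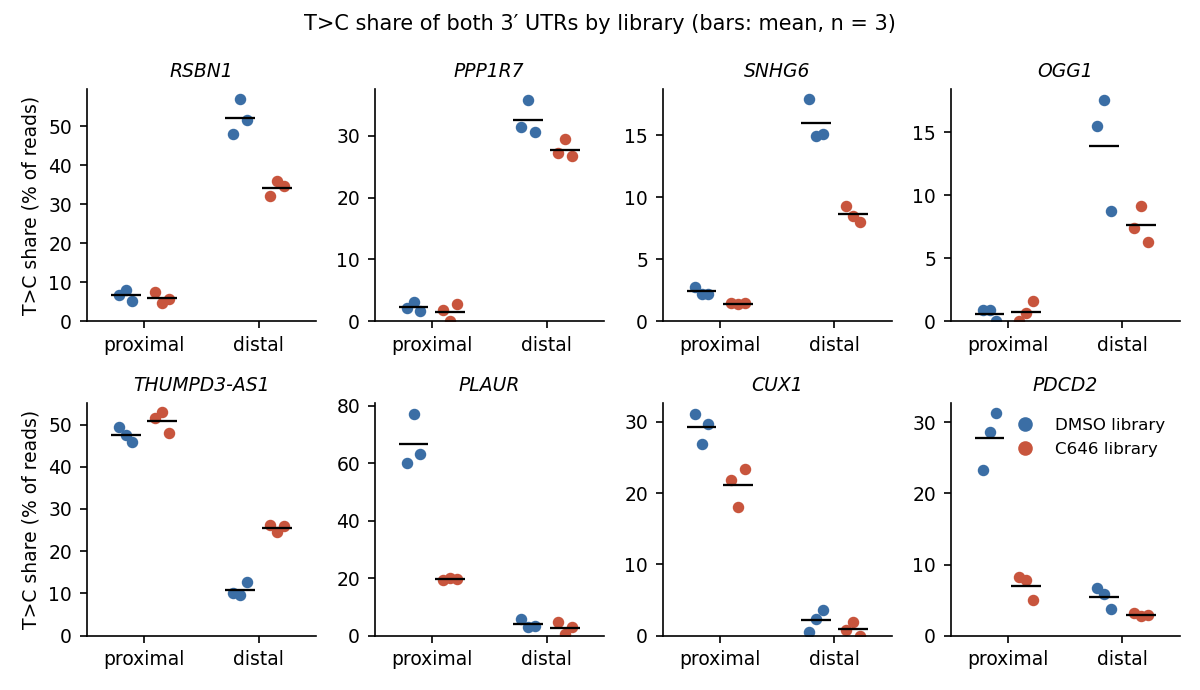
T>C share in percent of reads of the proximal and the distal 3′ UTR of 8 genes, 1 point per library (DMSO blue, C646 red), with the group mean as a bar. RSBN1, PPP1R7, SNHG6 and OGG1 lie higher at the distal end, and THUMPD3-AS1, PLAUR, CUX1 and PDCD2 at the proximal end.

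In some pairs the T>C reads carried few conversions. The distal 3′ UTR of PPP1R7 (chr2:241182824-241183650), a regulator of protein phosphatase 1, had a T>C share of 31.4%, 35.7% and 30.6% in DMSO and of 27.2%, 29.4% and 26.7% in C646, with a mean of 1.1 conversions per T>C read in DMSO. Its proximal 3′ UTR had 2.29% ± 0.730 in DMSO. The distal end of CDK11A carried 1.02 conversions per T>C read, and its call (log2 odds ratio 3.67) was lost without DMSO replicate 2 (adjusted p = 0.0508), and the proximal end of RET 1.06. The T>C share of that end of RET was 59.4%, 10.9% and 52.2% in the DMSO libraries, with DMSO replicate 2 apart from the others. The mean was under 1.2 conversions on the end with the higher T>C share in 5 of the 60 and in 6 of the 48 called pairs. What part single conversions had in these shares was not tested.

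The third question was whether C646 lowered the T>C share of both ends alike. The T>C odds fell in 82 proximal and 125 distal 3′ UTRs of the 356 pairs (23.0% and 35.1%, against 11.4% and 39.8% of 1298 pairs) and rose in 1 and 9 (0.281% and 2.53%, against 0.385% and 1.46%). The median log2 change of the odds was -0.95 at the proximal and -0.89 at the distal end. A test of the difference between the ends called 1 pair in each direction (0.281% each, against 0.308% and 0.308%). In simulated data this test called 2.5% of the pairs with a difference of 1 on the log2 scale and 29.9% of those with 2. Few calls here thus do not show that both ends responded alike.

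The pair with a smaller fall at the distal end was ABHD12, a lysophospholipid lipase gene that falls outside the naming rule, since the groups overlapped. Its proximal T>C share was 5.11%, 4.58% and 6.73% in DMSO and 0.727%, 0.426% and 0.00% in C646. Its distal share was 7.50%, 10.8% and 7.27% in DMSO and 0.00%, 7.89% and 13% in C646, so that the C646 libraries lay on both sides of the DMSO libraries (adjusted p of the difference 0.0403). The other was the noncoding gene LOC283683, with 0 T>C reads among 166 proximal reads in DMSO, which allows a share of up to 1.81%. In C646 the proximal share was 11.4%, 6.67% and 6.32%, and the pooled 8.22% is 4.55-fold that limit. The distal share was 14.6% in DMSO and 10.8% in C646 (edgeR adjusted p of the difference 0.0403). Both calls were lost in DESeq2, with conversions per covered T and with a replicate block, and that of LOC283683 without any one DMSO library or without C646 replicate 1 or 2. The call of ABHD12 was lost without any one DMSO library or without C646 replicate 3.

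Genes with 5 members describe use along a gene, and were picked for this after the values were seen. In ARID4B, JMJD1C and SLTM, which encode chromatin- or RNA-binding proteins, the last 3′ UTR had a higher share of the 5 in every C646 library than in any DMSO library. The share of the last one was 18.0% ± 1.37 in DMSO and 22.3% ± 1.25 in C646 for ARID4B, 13.7% ± 0.378 and 21.6% ± 2.99 for JMJD1C, and 19.6% ± 4.89 and 26.3% ± 1.29 for SLTM. No other one of their 3′ UTRs was higher without overlap. Over all 52 genes with 3 or more members, the last 3′ UTR was higher without overlap in 19, lower in 4 and overlapping in 29 (36.5% higher and 7.69% lower). Over all 807 genes with 3 or more 3′ UTRs that held reads, with no minimum of reads, these shares were 17.1% and 4.96%, and the depth of both sets differs. In each of the 3 genes with 5 members the last 3′ UTR also had the highest mean T>C share in DMSO. It was 46.3% in JMJD1C, against 19.5% to 22.7% for the others. The values were 58.5% against 15.8% to 30.5% in ARID4B and 10.7% against 4.38% to 7.83% in SLTM.

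The factors that cut and tail RNA were read at gene level, from a list of 35 genes. Of 33 tested in T>C reads, 9 fell after C646 and none rose (edgeR, adjusted p at most 0.01 and a log2 change of at least 1, against 31.8% lower and 3.01% higher of all 7782 genes). Their median log2 change was -0.85, beside -0.82 over all genes. The 9 were CPSF2, CPSF4 and CPSF7 of the cleavage factors, SCAF8, the U1 snRNP genes SNRNP70, SNRPA and SNRPC, and the 3′ UTR-binding ELAVL1 and ZFP36L2. CPSF4 had 4.14 T>C CPM ± 0.209 in DMSO and 0.993 ± 0.201 in C646, a log2 change of -2.03, and SNRNP70 had 19.8 ± 2.69 and 5.89 ± 2.43. CSTF3 had 8.91 ± 1.55 and 10.9 ± 2.91, and the termination factor gene PCF11 8.41 ± 1.47 and 14.1 ± 0.699, neither past the threshold. With scaling on the T>C reads themselves, which moves the median of all genes from -0.82 to 0.01, ZFP36L2 alone stayed lower and CSTF3, PCF11, PAPOLA and ZFP36 were called higher. Under that scaling 9.09% of all 7782 genes were called higher and 7.71% lower.

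In all reads 1 of 34 of these genes changed (0 lower, against 1.86% lower and 5.88% higher of 10796 genes). SYMPK, the scaffold of the cleavage complex, rose from 6.52 CPM ± 1.58 to 22.3 ± 9.52, a log2 change of 1.79. Under the fold asked, but at an adjusted p of at most 0.01, CSTF3 had a log2 change of 0.76, NUDT21 of 0.77, ZFP36L1 of 0.81, PABPC1 of 0.90, PCF11 of 0.99, SNRPA of -0.59 and ZFP36L2 of -0.99.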

How the data were processed

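RNA of 6 MOLM-13 samples (3 DMSO, 3 C646) was read by 3′ end SLAM-seq. The authors aligned the reads to GRCh38 and counted them per 3′ UTR with SLAM-Dunk 0.4.1 at default settings, on an annotation that the file headers give as RefSeq of June 2016 and Ensembl 84, and per the labels used CASAVA 1.9. The deposited values are raw read counts, T>C read counts and conversion counts, with coverage of T positions as a deposited signal. A T>C read is counted from a single conversion. The authors tested collapsed genes with DESeq2 on reads with at least 2 conversions, which was not done here. Groups follow the labels.

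Of the deposited entries, 1638 that repeated a place were dropped. Pairs were tested in edgeR 4.0.16 (R 4.3.3, limma 3.58.1) by quasi-likelihood, with a library term and Benjamini-Hochberg adjustment over all pairs kept by filterByExpr. Genes were summed over 3′ UTRs and scaled by TMM of all reads. GENCODE 44 gave transcripts and ends, and tables and figures were made in Python 3.11.15 with pandas 2.3.3, numpy 2.4.6 and matplotlib 3.10.9. Alternatives were DESeq2 1.42.0, other filters and cutoffs, diffSpliceDGE, conversions per covered T, a replicate block and leaving out each library. The scripts were tested on simulated data. Members and lists were chosen with earlier results of these data known.

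The genes named are, among pairs with at least 20 reads per library in each 3′ UTR, the 8 largest called changes in each direction without overlap of the groups, for T>C shares the 8 largest called differences in each direction with the same sign in each DMSO library and at least 10 T>C reads per DMSO library, the 10 pairs with the most reads on the less used 3′ UTR, the poly(A) factors, and the 2 entries nearest to each limit. One gene of this rule and one sequence are not reported here. An exact permutation test of 3 against 3 libraries cannot go below p = 0.1. The libraries hold between 7252597 and 10225448 reads. Reads carry no molecular identifiers here, so that the limits for counts of 0 (3 reads over the group) cover counting error only.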

Additional observations from a re-analysis of the deposited data

Results flagged for a closer look

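The response of LOC283683 was singled out because its 2 ends moved differently under C646 by a test of the difference itself. The fitted log2 difference of the T>C response, distal minus proximal, was -5.88 (edgeR adjusted p = 0.0403). The fitted value rests on a proximal end with 0 T>C reads in DMSO and is no bound. The pooled proximal T>C share in C646 was 4.55-fold the limit allowed in DMSO. This leaves out the counting error of the C646 reads and is no bound either. The proximal share was 0.00% in each DMSO library and 11.4%, 6.67% and 6.32% in C646. The distal share was 12.1%, 17.3% and 14.2% in DMSO and 12.3%, 12.2% and 8.11% in C646. Over its alternatives the adjusted p ranged from 0.0327 to 0.273.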

How the results depend on the processing

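The count of 3 member pairs with a usage change became 23 in DESeq2, 29 with at least 10 reads per 3′ UTR and library, 67 with diffSpliceDGE, 11 with no filter, 0 with a replicate block, 0 at an adjusted p of at most 0.01 with a log2 change of at least 1, and between 1 and 4 with 1 library left out. The median change stayed above 0 in each of these. In T>C reads the count of 0 became 10 with at least 10 T>C reads and stayed at 0 in DESeq2, with the block and with any library left out. The count of 108 pairs with unequal T>C shares became 53 (24 higher, 29 lower) by conversions per covered T, where the median over pairs went from 0.15 to -0.070, and lay between 61 (without DMSO replicate 1) and 129 with 1 library left out, with 72 and 71 without DMSO replicate 2 and 3. The 2 calls of an unequal response became 0 in DESeq2, by conversions, with the block and at the stricter threshold, and between 0 and 2 with 1 library left out. The poly(A) factors had 5 calls in T>C reads with TMM on those reads, and between 8 and 11 with 1 library left out, against 9, and in all reads between 1 and 4, against 1.

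Among single pairs, 517 values kept direction and side of the threshold, 34 were no longer called, 10 became called and 8 turned. The T>C log2 odds ratio turned to -0.085 in CCDC25 and -0.040 in YBX1 by conversions, and to -0.078 in CCDC25 and -0.032 in NDUFB2 in the C646 libraries. With 1 library left out it ran from -0.55 to 0.12 in RBMX (0.12 without DMSO replicate 2 and 0.079 without DMSO replicate 3), and the usage change ran from -0.070 to 0.51 in ATP5ME and from -0.070 to 0.49 in SNHG6. The cause was not tested. Libraries of the same replicate number deviated together with correlations of 0.02, 0.03 and 0.09 over 477 pairs, and not all 3 were over 0.1, so that the number was not taken to pair them. In the 254 pairs with at least 300 reads per 3′ UTR the correlations were 0.191, 0.176 and 0.121, each library correlating best with its own number, a hint from the data and not the design, so that pairing is not settled and blocked values are given. A replicate block on the deeper pairs, chosen after seeing the data, gave 22 calls in all reads and 4 in T>C reads. Of 477 member pairs, 356 had T>C reads enough to be tested.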
